A study of Mus musculus with 27 samples.

Results

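The serpins are a family of proteins that share a single fold, and their genes are named with the prefix Serpin. All 63 genes with this prefix among the 21850 rows of the deposited gene table were taken as members, without regard to their expression. They were followed through every labelled condition. The libraries are bulk RNA sequencing of mouse liver cells: freshly isolated hepatocytes, hepatocyte organoids (HepOrgs) and periportal assembloids, in which HepOrgs were combined with cholangiocytes and portal mesenchyme. Each of the 9 conditions had 3 libraries, with 30289364 to 65348596 counts in each of the 27.

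Inhibitory serpins present a flexible reactive centre loop as bait. When a protease cuts the loop, the serpin snaps into another conformation. It then locks the protease in a covalent complex, so that each molecule works once. The adult hepatocyte secretes most of the plasma serpins, among them α1-antitrypsin and antithrombin. Other members have given up inhibition for hormone transport or collagen folding, and most clade B serpins stay inside the cell and protect it from proteases of its own or of cytotoxic cells.

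All cells were primary C57BL/6 liver cells, which the study took from adult mice of both sexes. All libraries carried the genotype label WT, apart from 1 whose labels disagree. Replicate 3 of the freshly isolated hepatocytes is wild type in its title and MDR2-het in its genotype field, so the number of members called against fresh hepatocytes was also counted without it. HepOrgs were expanded to passage 2 in HM-Wnt medium. This holds EGF, HGF, FGF7, FGF10, R-spondin 1, gastrin, nicotinamide and Wnt3a-conditioned medium. It also holds the GSK3 inhibitor CHIR99021, the TGFβ receptor inhibitor A83-01 and a ROCK inhibitor. HepOrgs were then kept in it or moved to MM, which of these holds only the Wnt-conditioned medium and the ROCK inhibitor. They were collected after 1 or 2 weeks (7 or 14 days). Assembloids were built in MM from 10 HepOrgs, 1000 cholangiocytes (nuclear tdTomato) and either 250 (homeostatic) or 2500 (fibrotic-like) SCA1+ mesenchymal cells sorted by the PDGFRα-H2B-GFP reporter. They were collected after 1 or 2.5 weeks (7 or 18 days). The labels do not tie libraries to animals, so p-values measure the spread between these libraries only.

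The labelled cell types were checked on marker lists, given as summed CPM, the counts scaled to library size. The 8 hepatocyte markers summed to 64522 to 97312 CPM in fresh hepatocytes and 18756 to 56134 CPM in HepOrgs. The 7 cholangiocyte markers summed to 11.8 to 139 CPM in fresh hepatocytes and 3543 to 14991 CPM in HepOrgs. Nearly all of the latter was Spp1 (osteopontin), and without it the sums were 8.36 to 24.5 CPM in fresh hepatocytes and 47.0 to 157 CPM in HepOrgs. The part of these changes in the serpin values was not tested. A pair of assembloid libraries stood apart. Replicate 2 of the homeostatic assembloids at 1 week held 2287 CPM of hepatocyte markers, against 80619 and 37965 CPM in replicates 1 and 3. Replicate 3 of the fibrotic-like assembloids at 1 week held 2707 CPM of hepatocyte and 224 CPM of portal mesenchyme markers, against 16788 and 20143 CPM, and 2136 and 5054 CPM, in replicates 1 and 2. Cholangiocyte markers other than Spp1 summed to 5476 CPM in the first of these libraries and 3989 CPM in the second, against 63.9 to 946 CPM in the other assembloids of 1 week. Counts of serpins called in assembloids are therefore given with and without both, as are some fold changes. In bulk RNA, fewer cells of a type and less RNA per cell cannot be told apart.

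Of the 63 members, 8 had 0 counts in all 27 libraries and 41 were tested in at least 1 comparison. The other 14 never passed the filter on low counts, with at most 100 counts in any library. The 8 at 0 were Serpina1d, Serpina3k, Serpinb3a, Serpinb3c, Serpinb3d, Serpinb6e, Serpinb9h and Serpind1. Several of them overlap another gene: Serpina1d lies within the annotated span of Serpina1b, Serpind1 (heparin cofactor II) within that of Pi4ka, and 99.3% of the exonic bases of Serpina3k within that of Serpina3m. The deposited gene lengths equal the whole gene span, to within 5%, for 80.4% of genes. Of the 1046 genes of the table whose exonic bases all lie within another gene's span 736 (70.4%) were at 0 in every library, against 2314 of 15597 genes (14.8%) with no such overlap. Whether such overlapped members are expressed cannot be read from these counts, and no value is given for them. The below-filter members were Serpina16, Serpina1f, Serpina3a, Serpina3b, Serpina3j, Serpinb10, Serpinb12, Serpinb13, Serpinb3b, Serpinb6c, Serpinb6d, Serpinb9g, Serpine3 and Serpini2.

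The family took 2.19% and 2.41% of all counts in replicates 1 and 3 of the fresh hepatocytes and 4.18% in replicate 2, which carried the Serpina1e counts. In HM-Wnt HepOrgs it took 1.73% to 2.35% at 1 week and 1.19% to 2.19% at 2 weeks, and in MM HepOrgs 0.993% to 1.55% and 1.11% to 1.77%. Ordered by mean CPM per kilobase of exon, the leading members of fresh hepatocytes were Serpina1c (3368), Serpina1e (3256, carried by 1 library), Serpina1b (1901) and Serpinc1 (605). In HM-Wnt HepOrgs Serpina1b led at both times (1476 and 1087 CPM per kb), ahead of Serpina7 and Serping1 at 1 week (1052 each) and Serping1 at 2 weeks (925). In MM HepOrgs Serpina7 led at both times (1148 and 1800 CPM per kb), ahead of Serping1 (869 and 1046 CPM per kb). In each HepOrg group the libraries of the first and second member overlapped, whereas in fresh hepatocytes every Serpina1c value lay above every Serpina1b value.

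The first question was how HepOrgs in each medium differ from the hepatocytes they model. Fresh hepatocytes were compared with each HepOrg group by edgeR's quasi-likelihood test with Benjamini-Hochberg adjustment over 13405 genes, of which 35 were serpins. In HM-Wnt HepOrgs at 1 week 19 members changed, against 49.7% of all genes: 8 were higher (24.9% of all genes) and 11 lower (24.8%). At 2 weeks 20 changed (51.8% of all genes), 8 higher (26.1%) and 12 lower (25.7%). In MM HepOrgs 24 changed at 1 week (42.8% of all genes), 13 higher (21.5%) and 11 lower (21.3%). At 2 weeks in MM 25 changed (39.7% of all genes), 14 higher (19.7%) and 11 lower (20%). With all 27 libraries in 1 fit, 42 serpins were tested and the counts were 11 and 11 in HM-Wnt (19.7% and 22.2% of all genes) and 10 and 9 in MM (13.7% and 12.9%). With paralogue clusters summed, 15 and 16 of 23 rows were called in MM (42.8% and 39.7% of all rows tested). Members pass the filter partly through the groups in which they are high, so these counts are a description. Without fresh replicate 3 they were 17, 17, 18 and 21. No share of all genes is given for these, so their fall from the counts with all libraries cannot be read as one of the serpins. The heat map of log2 fold changes gives 34 of the 35 serpins.

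**Figure D1:**
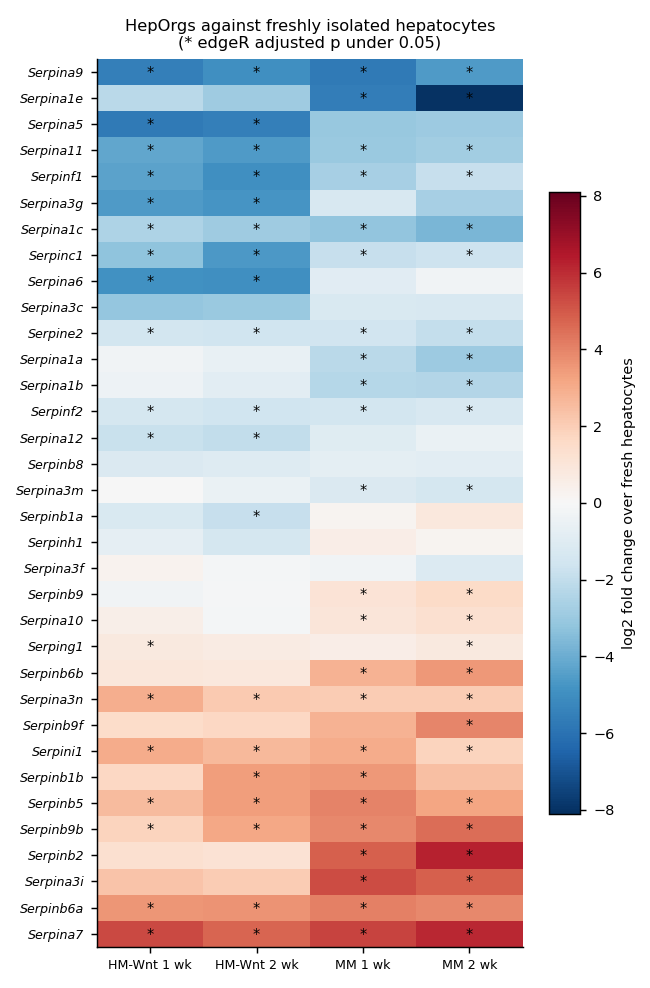
Log2 fold change (edgeR) of 34 serpins in each HepOrg group (columns) over freshly isolated hepatocytes, 3 libraries a group, rows ordered by the mean over the 4 comparisons and asterisks at adjusted p under 0.05. Serpina7 and Serpinb6a are red in all 4 columns, Serpina9, Serpina11, Serpinf1 and Serpinc1 blue in all 4.

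The most abundant members are the Serpina1 genes, the mouse copies of α1-antitrypsin, the main plasma inhibitor of neutrophil elastase. They lie side by side on chromosome 12 and are close to identical, with 96.3% to 98.5% of 1239 coding bases shared between pairs. The most divergent 60-base stretch of their coding sequences lies where the reactive centre loop is coded, the part that decides which protease is caught. The 60 coding bases in which the copies differ most are shown 5′ to 3′ on the coding (minus) strand of GRCm39, with capitals where a copy differs from Serpina1a.
Serpina1a (chr12:103820016-103820075): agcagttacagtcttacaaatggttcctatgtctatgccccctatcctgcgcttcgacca
Serpina1b (chr12:103694583-103694642): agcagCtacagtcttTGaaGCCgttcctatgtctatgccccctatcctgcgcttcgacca
Serpina1c (chr12:103861353-103861412): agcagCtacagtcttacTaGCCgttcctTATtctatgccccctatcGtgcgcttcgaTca
Serpina1d (chr12:103730021-103730080): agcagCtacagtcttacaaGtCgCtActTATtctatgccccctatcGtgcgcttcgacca
Serpina1e (chr12:103913359-103913418): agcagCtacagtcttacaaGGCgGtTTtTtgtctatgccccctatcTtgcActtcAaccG
Serpina1b, c, d and e differed from Serpina1a at 6, 10, 9 and 12 of these bases. Outside such stretches reads are easily shared: 59.5% of the 100-base windows of the Serpina1c transcript and 48.7% of those of Serpina1a also occur in another serpin transcript, against 22.8% for Serpina1b and 16.8% for Serpina1e. How the authors' counting split such reads is not known. Single copies are therefore uncertain, and their sum is given as well.

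Serpina1b stood at 6796, 9392 and 6962 CPM in fresh replicates 1, 2 and 3. HM-Wnt HepOrgs had 6039, 6873 and 5066 CPM at 1 week and 4372, 6049 and 2816 CPM at 2 weeks. It fell in MM HepOrgs, to 1952, 2252 and 606 CPM at 1 week (log2 fold change -2.29, SE 0.47, adjusted p = 0.00188) and 1664, 2005 and 787 CPM at 2 weeks (log2 fold change -2.40, SE 0.48, adjusted p = 0.00145). Every MM library lay below every fresh library, while the HM-Wnt libraries at 1 week overlapped the fresh ones. Serpina1a followed the same order, with 2277, 3656 and 2465 CPM in fresh hepatocytes. HM-Wnt HepOrgs had 2606, 2875 and 1753 CPM at 1 week and 1915, 2636 and 1097 CPM at 2 weeks and MM HepOrgs 685, 1025 and 121 CPM at 1 week and 531, 434 and 165 CPM at 2 weeks. It too fell in MM (log2 fold change -2.21, SE 0.63, adjusted p = 0.0128 at 1 week and log2 fold change -2.92, SE 0.65, adjusted p = 0.00316 at 2 weeks). Neither copy passed the test in HM-Wnt.

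Serpina1c fell already in HM-Wnt. It stood at 7441, 9124 and 8117 CPM in fresh hepatocytes and at 1659, 1858 and 867 CPM at 1 week and 1133, 1884 and 439 CPM at 2 weeks in HM-Wnt. MM HepOrgs had 1113, 1553 and 91.2 CPM at 1 week and 843, 1008 and 94.7 CPM at 2 weeks. The log2 fold changes against fresh hepatocytes were -2.53, -2.87, -3.18 and -3.69 (SE 0.91, 0.93, 0.94 and 0.96; adjusted p = 0.0341, 0.0193, 0.0153 and 0.00814). Every culture library lay below every fresh one. The call in HM-Wnt at 1 week was lost without fresh replicate 1, 2 or 3 or HM-Wnt replicate 1, 2 or 3 (log2 fold change -2.74 to -2.25, adjusted p = 0.0523 to 0.108), that is without any 1 of the 6 libraries compared. The call at 2 weeks was lost without HM-Wnt replicate 1 or 3 (log2 fold change -2.85 to -2.46, adjusted p = 0.0575 to 0.0735). Among the counts of Serpina1a, b and c together, Serpina1c held 41.2% to 46.3% in fresh hepatocytes, and 11.3% to 16.1% and 10.1% to 17.8% in HM-Wnt HepOrgs. These shares did not overlap between fresh hepatocytes and HM-Wnt HepOrgs. Since Serpina1c is the copy that shares most windows with another, the part of read assignment in that shift was not tested.

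Serpina1e rested on 1 library. It stood at 228, 26334 and 226 CPM in fresh hepatocytes. Replicate 2 held 54.3% of its Serpina1 counts in this copy while replicates 1 and 3 held 1.36% and 1.27%. HM-Wnt HepOrgs had 1681, 3680.0 and 809 CPM at 1 week and 1139, 2203 and 399 CPM at 2 weeks, above fresh replicates 1 and 3 and below replicate 2. MM HepOrgs had 134, 437 and 1.76 CPM at 1 week and 63, 40.7 and 2.3 CPM at 2 weeks. The fall in MM (-5.58 at 1 week, SE 2.06, adjusted p = 0.0432; -8.02 at 2 weeks, SE 2.30, adjusted p = 0.0138) was lost without fresh replicate 2, at -0.25 (adjusted p = 0.902) and -2.66 (adjusted p = 0.164).

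With the Serpina1 rows summed before the test, the cluster fell in MM HepOrgs, with log2 fold changes of -3.08 at 1 week (adjusted p = 0.00346) and -3.47 at 2 weeks (adjusted p = 0.00186). Without fresh replicate 2 these were -2.38 (adjusted p = 0.0127) and -2.75 (adjusted p = 0.00621). In HM-Wnt the sum did not pass at 1 week (-1.26, adjusted p = 0.127) and fell at 2 weeks (-1.71, adjusted p = 0.0458). That call was lost without fresh replicate 2 (-0.99, adjusted p = 0.228). The stacked shares of Serpina1 counts show this makeup library by library.

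**Figure D2:**
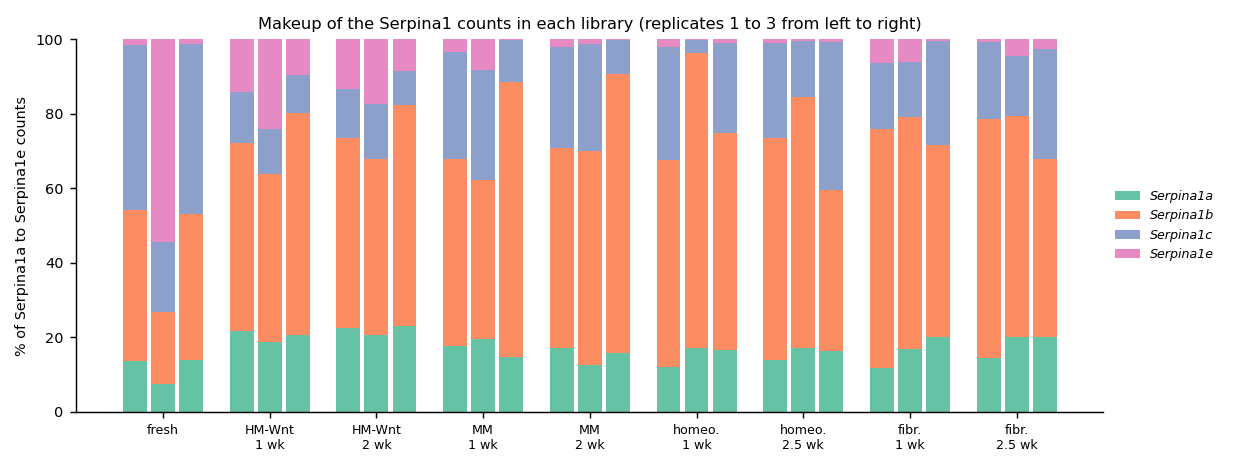
Percent of the Serpina1a to Serpina1e counts of each of the 27 libraries (bars, replicates 1 to 3 of each condition from left to right) held by Serpina1a, Serpina1b, Serpina1c and Serpina1e; Serpina1d was at 0 in all. Serpina1e takes 54.3% of the bar of fresh replicate 2 and 1.36% and 1.27% of the other fresh bars.

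Promoter letters were read next. The 250 bases before the start of transcription were searched in the RefSeq promoter table of GRCm38.p6, which held 54 of the 63 members. Motifs sought on both strands included GTTAAT, a half-site of the hepatocyte factor HNF1, and TGTTTGC, a core bound by forkhead factors such as FOXA. Also sought was TTCNNNGAA, a consensus of STAT factors, which stood in 7.02% of all promoters and in 8 members. GTTAAT occurred in 6.43% and TGTTTGC in 4.3% of all 32851 promoters, and in 11 and 7 members. Both occurred in all 5 promoters of Serpina1a to Serpina1e. The stretch that holds both is shown for the copy that led in HM-Wnt, its neighbour with the largest fall in HM-Wnt and the copy that varied most, with the 2 motifs in capitals.
Serpina1b (chr12:103738198-103738259, minus strand): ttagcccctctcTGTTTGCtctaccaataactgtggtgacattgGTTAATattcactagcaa
Serpina1c (chr12:103904960-103905021, minus strand): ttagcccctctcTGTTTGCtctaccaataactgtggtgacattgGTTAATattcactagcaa
Serpina1e (chr12:103956958-103957019, minus strand): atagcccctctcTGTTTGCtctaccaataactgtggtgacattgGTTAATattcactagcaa
Serpina1a, b and c had the same letters throughout and Serpina1e differed at 1 base, so copies with unlike levels had like letters here. A match of letters is not a bound site.

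The neighbouring Serpina3 cluster holds the mouse relatives of α1-antichymotrypsin, of which Serpina3n is an acute-phase protein and inhibits granzyme B and cathepsin G. Coding identity among Serpina3g, i, k, m and n was lower, 80.4% to 91.7%. The matching 60 bases are shown on the plus strand of GRCm39, with capitals where a copy differs from Serpina3k, which the others do at 13 to 22 positions.
Serpina3k (chr12:104311525-104311584): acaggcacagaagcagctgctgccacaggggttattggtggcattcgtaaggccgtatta
Serpina3m (chr12:104360025-104360084): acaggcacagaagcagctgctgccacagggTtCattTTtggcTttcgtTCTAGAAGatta
Serpina3n (chr12:104379704-104379763): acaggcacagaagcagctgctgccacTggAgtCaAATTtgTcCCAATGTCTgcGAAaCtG
Serpina3g (chr12:104207328-104207387): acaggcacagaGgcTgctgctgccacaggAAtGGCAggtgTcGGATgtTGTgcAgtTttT
Serpina3i (chr12:104234736-104234795): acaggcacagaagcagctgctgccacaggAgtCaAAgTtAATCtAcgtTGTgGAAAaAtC
Only 0.186% of the windows of Serpina3n were shared with another serpin, and 2.79%, 4.0% and 2.24% of those of Serpina3m, Serpina3g and Serpina3i, so that read sharing within this group is small.

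Serpina3n rose in every HepOrg group. It stood at 294, 348 and 225 CPM in fresh hepatocytes and at 2281, 3109.8 and 1593 CPM at 1 week and 1508, 1626 and 671 CPM at 2 weeks in HM-Wnt. MM HepOrgs had 1403, 1381 and 924 CPM at 1 week and 1298, 1324 and 1007 CPM at 2 weeks. All 12 HepOrg libraries lay above the fresh ones, with log2 fold changes of 2.97, 2.11, 2.08 and 2.04 (SE 0.36, 0.35, 0.35 and 0.35; adjusted p = 2.37e-05, 0.000247, 0.000412 and 0.000492). Serpina3m went the other way in MM. Its levels were 1332, 739.8 and 1672 CPM in fresh hepatocytes and 960.3, 1842 and 899 CPM at 1 week and 769, 1131 and 687 CPM at 2 weeks in HM-Wnt. In MM they were 477, 627 and 617 CPM (log2 fold change -1.14, SE 0.32, adjusted p = 0.0123) and 481, 464 and 467 CPM (log2 fold change -1.43, SE 0.33, adjusted p = 0.0037). At 2 weeks in MM no library reached the lowest fresh one. The call at 1 week was lost without fresh replicate 3 or MM replicate 1 (log2 fold change -1.02 to -0.85, adjusted p = 0.0508 to 0.0694).

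Serpina3i, a minor member of the cluster, rose in MM from 0.38, 0.128 and 0.942 CPM in fresh hepatocytes to 26.9, 35.4 and 1.24 CPM at 1 week (log2 fold change 5.26, SE 1.32, adjusted p = 0.00611) and 23.9, 22.6 and 1.46 CPM at 2 weeks (log2 fold change 4.85, SE 1.30, adjusted p = 0.00925). Replicate 3 was far below replicates 1 and 2 at both times. HM-Wnt HepOrgs had 2.64, 4.74 and 1.08 CPM at 1 week and 3.09, 3.43 and 0.44 CPM at 2 weeks. Serpina3g fell in HM-Wnt: 1.9, 4.09 and 2.1 CPM in fresh hepatocytes became 0.058, 0.0416 and 0.0865 CPM at 1 week and 0.0747, 0.0752 and 0 CPM at 2 weeks. Its log2 fold changes of -4.59 (SE 1.12, adjusted p = 0.00424) and -4.76 (SE 1.11, adjusted p = 0.00302) rest on 7 and 6 counts over the HM-Wnt groups. A consensus of NF-κB, GGG and TTTCC with 2 free bases between them, stood in 1.41% of all promoters and in 3 members, Serpina3g, Serpina3i and Serpina3n. The stretch is shown for each with the match in capitals (GRCm38.p6, plus strand).
Serpina3g (chr12:104236047-104236086): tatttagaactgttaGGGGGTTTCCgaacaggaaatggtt
Serpina3i (chr12:104262953-104262992): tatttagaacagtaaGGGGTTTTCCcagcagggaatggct
Serpina3n (chr12:104406522-104406561): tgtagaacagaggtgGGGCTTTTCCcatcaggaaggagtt
These 3 did not move alike against fresh hepatocytes, since Serpina3g was lower in HM-Wnt where Serpina3n was higher.

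Among the remaining plasma inhibitors, antithrombin (Serpinc1), which blocks thrombin and factor Xa, was the highest in fresh hepatocytes at 5389, 5106 and 5028 CPM. It fell to 531, 900.0 and 265 CPM at 1 week and 198, 379.8 and 66.8 CPM at 2 weeks in HM-Wnt and to 1739.7, 1857 and 763 CPM at 1 week and 1803, 2172 and 997 CPM at 2 weeks in MM. At 2 weeks the fresh, MM and HM-Wnt libraries formed 3 separate ranges. The log2 fold changes against fresh hepatocytes were -3.23, -4.62, -1.85 and -1.66 (SE 0.61, 0.65, 0.58 and 0.57; adjusted p = 0.00074, 6.87e-05, 0.02 and 0.0336). The call in MM at 2 weeks was lost without fresh replicate 1, 2 or 3 or MM replicate 1 or 3 (log2 fold change -1.73 to -1.37, adjusted p = 0.0577 to 0.125). That at 1 week was lost without MM replicate 3 (log2 fold change -1.52, adjusted p = 0.0829). The α2-antiplasmin gene Serpinf2, whose product blocks plasmin, went from 1822, 2014 and 2164 CPM to 826, 648 and 824 CPM at 1 week and 650.3, 806 and 509.7 CPM at 2 weeks in HM-Wnt. In MM it stood at 806, 789.6 and 538 CPM at 1 week and 854, 1062 and 553 CPM at 2 weeks. It was lower in all 4 groups (log2 fold change -1.42, -1.64, -1.51 and -1.30, SE 0.26 each; adjusted p = 0.000615, 0.000204, 0.000535 and 0.00154). No HepOrg library was as high as a fresh one.

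The C1 inhibitor Serping1, which restrains complement and kallikrein, stood at 2176, 1508 and 1669.8 CPM in fresh hepatocytes and at 3217, 3439 and 2928 CPM at 1 week and 3307, 3229 and 1897 CPM at 2 weeks in HM-Wnt. In MM it stood at 3311, 2372 and 2237 CPM at 1 week and 3415, 3789 and 2322 CPM at 2 weeks. It was higher in HM-Wnt at 1 week (log2 fold change 0.81, SE 0.26, adjusted p = 0.0218) and in MM at 2 weeks (log2 fold change 0.81, SE 0.26, adjusted p = 0.0257). The first call was lost without fresh replicate 2 or 3 or HM-Wnt replicate 2 (log2 fold change 0.72 to 0.78, adjusted p = 0.0539 to 0.0681), the second without fresh replicate 2 or 3 or MM replicate 1 or 2 (log2 fold change 0.67 to 0.79, adjusted p = 0.0706 to 0.0974). Serpina10, which with protein Z blocks factor Xa, was higher in MM, at 975, 802 and 536 CPM (log2 fold change 0.98, SE 0.34, adjusted p = 0.035) and 1121, 1209.7 and 536 CPM (log2 fold change 1.29, SE 0.35, adjusted p = 0.00974) against 367, 351 and 439 CPM in fresh hepatocytes. HM-Wnt HepOrgs had 584, 653 and 423 CPM at 1 week and 412, 429 and 209.9 CPM at 2 weeks. Its MM values all exceeded the fresh ones, but the call at 1 week was lost without fresh replicate 1, 2 or 3 or MM replicate 1 or 2 (log2 fold change 0.78 to 1.10, adjusted p = 0.0526 to 0.122). Serpina11, a plasma member of unsettled function, fell in all 4 groups, from 672, 144 and 603 CPM to 33.4, 28.8 and 16.8 CPM at 1 week and 20.4, 32.2 and 6 CPM at 2 weeks in HM-Wnt and 82.3, 85.8 and 9.86 CPM at 1 week and 93.1, 82.2 and 23.3 CPM at 2 weeks in MM. Every MM and HM-Wnt library was below every fresh one (log2 fold change -4.19, -4.61, -2.997 and -2.84, SE 0.89, 0.91, 0.85 and 0.84; adjusted p = 0.00176, 0.000947, 0.012 and 0.016). The last of these calls was lost without MM replicate 3 (log2 fold change -2.41, adjusted p = 0.0612).

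The hormone carriers went opposite ways in HM-Wnt. Serpina7, the thyroxine-binding globulin, stood at 75.1, 42.1 and 70.8 CPM in fresh hepatocytes. It stood at 2167, 3251 and 2415 CPM at 1 week and 1938, 1843 and 1144 CPM at 2 weeks in HM-Wnt and at 3909, 2526 and 2114 CPM at 1 week and 4737, 5599 and 3064 CPM at 2 weeks in MM. All 12 HepOrg libraries were over 1000 CPM and all fresh libraries under 100 CPM. The log2 fold changes were 5.35, 4.69, 5.49 and 6.14 (SE 0.39, 0.38, 0.39 and 0.40; adjusted p = 4.27e-07, 7.28e-07, 4.70e-07 and 2.76e-07). Serpina6, the corticosteroid-binding globulin, instead fell in HM-Wnt, from 809, 233 and 309.9 CPM to 26.8, 9.74 and 10.1 CPM (log2 fold change -4.88, SE 0.97, adjusted p = 0.00112) and 28.7, 10.8 and 4.32 CPM (log2 fold change -4.95, SE 0.98, adjusted p = 0.000929). In MM it stood at 343, 326 and 56.3 CPM at 1 week and 473, 565 and 90.0 CPM at 2 weeks, overlapping the fresh libraries. It passed the test against fresh hepatocytes at neither time.

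The pigment epithelium-derived factor Serpinf1, a secreted member without inhibitory activity that is known for blocking the growth of vessels, fell in every HepOrg group and least in MM at 2 weeks. Fresh hepatocytes had 1395, 1391 and 1182 CPM, HM-Wnt HepOrgs 64.7, 55.9 and 84.9 CPM at 1 week and 44.4, 42 and 41.4 CPM at 2 weeks, and MM HepOrgs 275, 235 and 110.2 CPM at 1 week and 403, 413 and 269.8 CPM at 2 weeks. The ranges of fresh, MM and HM-Wnt did not overlap. The log2 fold changes against fresh hepatocytes were -4.31, -4.98, -2.696 and -1.89 (SE 0.33, 0.34, 0.31 and 0.30; adjusted p = 6.09e-07, 2.34e-07, 1.95e-05 and 0.00029). Serpina12 (vaspin, an adipokine) had 293, 289 and 589.8 CPM in fresh hepatocytes. It was lower in HM-Wnt, at 87.8, 152 and 105 CPM (log2 fold change -1.81, SE 0.42, adjusted p = 0.0032) and 88.3, 124 and 89.3 CPM (log2 fold change -1.99, SE 0.42, adjusted p = 0.00165). In MM, at 299.9, 217 and 93.2 CPM at 1 week and 335, 305 and 178 CPM at 2 weeks, it did not pass. Serpinh1, the collagen chaperone HSP47 of the endoplasmic reticulum, did not exceed 2.13 CPM in any of these 15 libraries.

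Among the inhibitors of tissue proteases, Serpine2 (protease nexin-1) was lower, at 18, 29.8 and 25.1 CPM at 1 week and 12.1, 10.5 and 43.1 CPM at 2 weeks in HM-Wnt and 29.1, 26.1 and 16 CPM at 1 week and 8.91, 18.8 and 26.5 CPM at 2 weeks in MM against 57.8, 44.2 and 101 CPM in fresh hepatocytes. Fresh replicate 3 was the highest of the 15 libraries. The log2 fold changes were -1.51, -1.64, -1.53 and -1.93 (adjusted p = 0.0315, 0.0212, 0.0347 and 0.0127). Each of these 4 calls was lost without some single library. In HM-Wnt the call was lost at 1 week without fresh replicate 3 or HM-Wnt replicate 1, 2 or 3 (log2 fold change -1.68 to -1.09, adjusted p = 0.05 to 0.133) and at 2 weeks without fresh replicate 3 or HM-Wnt replicate 1 or 2 (log2 fold change -1.34 to -1.24, adjusted p = 0.0728 to 0.0868). In MM it was lost at 1 week without fresh replicate 3 or MM replicate 1, 2 or 3 (log2 fold change -1.70 to -1.10, adjusted p = 0.055 to 0.144) and at 2 weeks without fresh replicate 3 or MM replicate 1 (log2 fold change -1.60 to -1.49, adjusted p = 0.0507 to 0.0577).

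Serpini1, or neuroserpin, which inhibits tissue plasminogen activator, rose from 0.136, 0.128 and 0.304 CPM to 1.74, 1.96 and 2.23 CPM at 1 week and 1.69, 1.55 and 1.24 CPM at 2 weeks in HM-Wnt and 2.47, 2.43 and 0.84 CPM at 1 week and 0.241, 0.633 and 1.57 CPM at 2 weeks in MM (log2 fold change 3.02, 2.65, 3.000 and 1.81; adjusted p = 0.00119, 0.0024, 0.00161 and 0.0239). The last of these calls was lost without fresh replicate 1 or 2 or MM replicate 3 (log2 fold change 1.02 to 1.68, adjusted p = 0.0638 to 0.152). Serpina5, the protein C inhibitor, fell in HM-Wnt from 4.81, 0.682 and 11 CPM to 0.029, 0.167 and 0 CPM (log2 fold change -5.70, SE 1.43, adjusted p = 0.00506) and 0.0996, 0.1 and 0 CPM (log2 fold change -5.55, SE 1.41, adjusted p = 0.00501). These rest on 5 and 8 counts over the HM-Wnt groups, and MM HepOrgs had 1.25, 0.487 and 0.1 CPM at 1 week and 1.12, 0.915 and 0 CPM at 2 weeks. Serpina9, known from germinal centre B cells, was at 6.82, 3.24 and 17.4 CPM in fresh hepatocytes and at most 0.70 CPM in any HepOrg library. Its log2 fold changes were -5.56, -4.97, -5.72 and -4.59 (adjusted p = 0.000694, 0.00111, 0.00071 and 0.00251). The 8 immune markers summed to 30.7 to 273 CPM in the fresh libraries and 7.76 to 50.4 CPM in the HepOrgs. Most of the latter was Cd68, which was higher than in fresh hepatocytes, and without it the sums were 29.2 to 265 CPM and 0.634 to 18.8 CPM. The Kupffer cell gene Clec4f went from 18.9 to 127 CPM to 0 in every HepOrg library. Their part in the Serpina9 difference was not tested. Serpinb2, or PAI-2, had 3 counts over the fresh libraries and 730 over MM HepOrgs at 2 weeks, a ratio of 196 with an exact 95% interval of 66.8 to 952 for counting error only. Its MM levels were 5.31, 1.05 and 0.98 CPM at 1 week and 1.5, 0.704 and 18 CPM at 2 weeks, where replicate 3 led.

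The members with partners in plasminogen activation were read beside a list of 12 genes of that system, of which 11 were tested against fresh hepatocytes. Plat, the tissue plasminogen activator, rose by 8.95 in HM-Wnt at 1 week and 8.44 in MM at 2 weeks on the log2 scale (adjusted p = 2.32e-06 and 5.01e-06). The urokinase receptor gene Plaur rose by 4.75 and 4.51 (adjusted p = 1.01e-05 and 2.03e-05). The other members that passed were lower: 8 in HM-Wnt at 1 week and 7 in each other group, among them plasminogen (Plg, -2.12 and -2.15, adjusted p = 0.00559 and 0.00673). Another was plasma prekallikrein (Klkb1, -8.75 and -8.24, adjusted p = 6.45e-08 and 1.01e-07). Agt, angiotensinogen, is a serpin without the prefix. It fell in the 4 HepOrg groups (log2 fold change -2.10, -2.32, -1.88 and -1.70, adjusted p = 0.000527, 0.00024, 0.00143 and 0.00284).

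**Figure D3:**
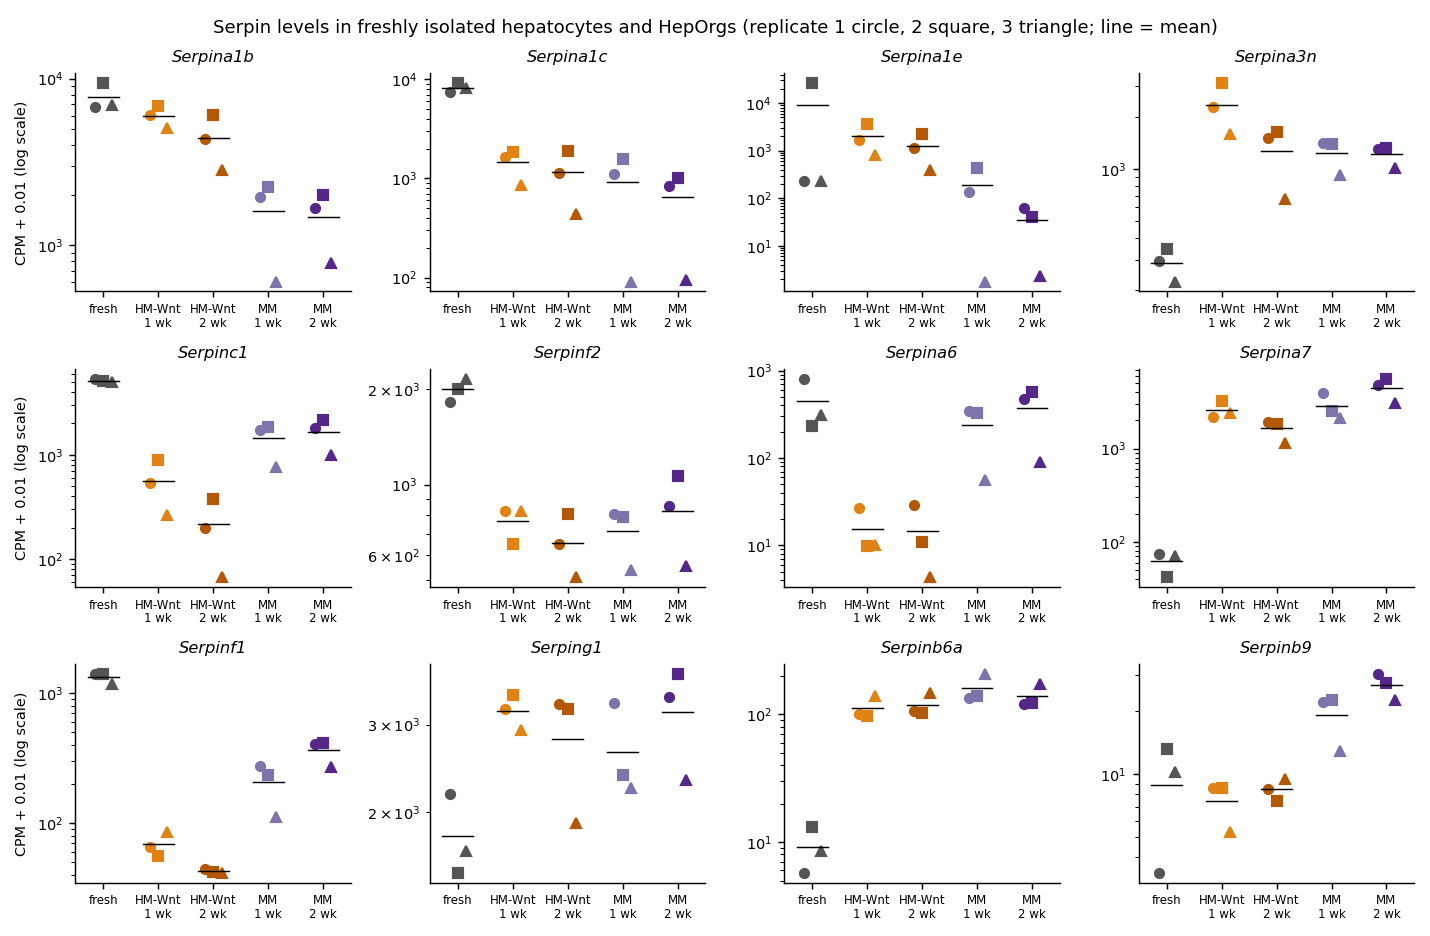
Level (CPM plus 0.01, log axis) of 12 serpins in each of the 15 libraries of freshly isolated hepatocytes and HepOrgs, with replicates 1, 2 and 3 as circle, square and triangle and the mean of 3 as a line. Serpina7 and Serpinb6a lie higher in every HepOrg library than in any fresh library, and Serpina6 and Serpinf1 lie higher in every MM library than in any HM-Wnt library.

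Clade B, the intracellular serpins, made up 0.00102% to 0.00271% of fresh hepatocyte counts and 0.00945% to 0.0259% of HepOrg counts. Serpinb6a, a cytosolic inhibitor of cathepsin G and trypsin-like proteases, led the clade in HepOrgs. Its 5.76, 13.2 and 8.45 CPM in fresh hepatocytes became 101, 97.1 and 140.3 CPM at 1 week and 106, 103 and 147 CPM at 2 weeks in HM-Wnt and 135, 140.1 and 207 CPM at 1 week and 122, 122 and 175 CPM at 2 weeks in MM. It rose in all 4 groups without overlap (3.58, 3.67, 4.10 and 3.90 on the log2 scale, SE 0.32, 0.33, 0.33 and 0.33; adjusted p = 2.08e-06, 1.59e-06, 1.17e-06 and 1.81e-06). Serpinb6b rose in MM, from 0.733, 5.03 and 3.71 CPM to 22.9, 33.9 and 11.1 CPM (log2 fold change 2.81, SE 0.64, adjusted p = 0.00357) and 49.1, 39.5 and 22.8 CPM (log2 fold change 3.52, SE 0.66, adjusted p = 0.00101), with 7.05, 8.07 and 3.5 CPM at 1 week and 4.86, 3.53 and 9.22 CPM at 2 weeks in HM-Wnt. Serpinb9, which shields cells from granzyme B, likewise had 3.37, 13.2 and 10.2 CPM in fresh hepatocytes and 8.56, 8.57 and 5.25 CPM at 1 week and 8.49, 7.42 and 9.47 CPM at 2 weeks in HM-Wnt. It rose in MM, to 22.2, 22.7 and 13 CPM (log2 fold change 1.08, SE 0.40, adjusted p = 0.0414) and 30.1, 27.2 and 22.6 CPM (log2 fold change 1.55, SE 0.40, adjusted p = 0.00777). The call at 1 week was lost without fresh replicate 1 or 3 or MM replicate 1 or 2 (log2 fold change 0.71 to 1.21, adjusted p = 0.0606 to 0.112).

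The remaining clade B members were near the limit of detection. Serpinb1c, Serpinb7, Serpinb9c, Serpinb9d, Serpinb9e and Serpinb9f did not exceed 1.54 CPM in any fresh or HepOrg library. Serpinb9b was at 0 in the fresh libraries and at most 1.34 CPM in HepOrgs. Serpinb5 (maspin) had 2 counts over the fresh libraries and reached at most 1.38 CPM, and Serpinb1b had 2 counts there and reached at most 2.04 CPM. Serpinb1a, an inhibitor of neutrophil proteases, had 0.679, 1.96 and 1.03 CPM in fresh hepatocytes, 0.203, 1.21 and 0.173 CPM at 1 week and 0.174, 0.577 and 0.138 CPM at 2 weeks in HM-Wnt, and 1.59, 2.11 and 0.62 CPM at 1 week and 1.42, 3.24 and 2.07 CPM at 2 weeks in MM. It passed in HM-Wnt at 2 weeks (log2 fold change -1.89, SE 0.75, adjusted p = 0.0494), and not without fresh replicate 2 or 3 or HM-Wnt replicate 1 or 3 (log2 fold change -1.99 to -1.38, adjusted p = 0.0718 to 0.16). Serpinb8 stayed between 0.667 and 5.67 CPM and passed no test against fresh hepatocytes.

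The second question was how HepOrgs in MM and HM-Wnt differ, since MM is the medium of the assembloids. Cell content may differ too. Portal mesenchyme markers summed to 103 to 222 CPM at 1 week and 66.6 to 178 CPM at 2 weeks in MM HepOrgs. In HM-Wnt HepOrgs they summed to 25.7 to 88.1 CPM and 16.8 to 76.5 CPM. Of 7 such markers tested over both times 0 passed. Their part in the serpin values was not tested. MM and HM-Wnt HepOrgs were compared at each time and over both times in 1 fit of the 12 HepOrg libraries, with 12989 genes and 35 serpins tested. At 1 week 3 members changed, all higher in MM, at a background of 2.98% of all genes (1.76% higher and 1.22% lower). At 2 weeks 12 changed, against 11.5% of all genes: 10 were higher (6.84%) and 2 lower (4.61%). Over both times 19 changed (21.5% of all genes), 14 higher (11.5%) and 5 lower (10%). With all 27 libraries in 1 fit the counts were 0, 1 and 2, at a background of 0%, 0.0478% and 0.621% of all genes. HepOrg libraries with the same replicate number deviated together. With the number as a block 13 members changed at 1 week (8 higher; 9.48% of all genes) and 19 at 2 weeks (14 higher; 19.6%). The count at 1 week fell to 0 without HM-Wnt replicate 3 or MM replicate 1 or 2, and to 1 without HM-Wnt replicate 1 or 2. The count at 2 weeks fell to 6 without HM-Wnt replicate 1 or 3 or MM replicate 1 or 2. The 10 members that the block added at 1 week were Serpina1a, Serpina1b, Serpina1e, Serpina3m and Serpina3n, all lower in MM, and Serpina3c, Serpina3i, Serpinb6a, Serpinb6b and Serpinc1, all higher. The 7 it added at 2 weeks were Serpina1b, Serpina1e and Serpina3m, lower, and Serpina3c, Serpina3i, Serpina5 and Serpina11, higher.

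**Figure D4:**
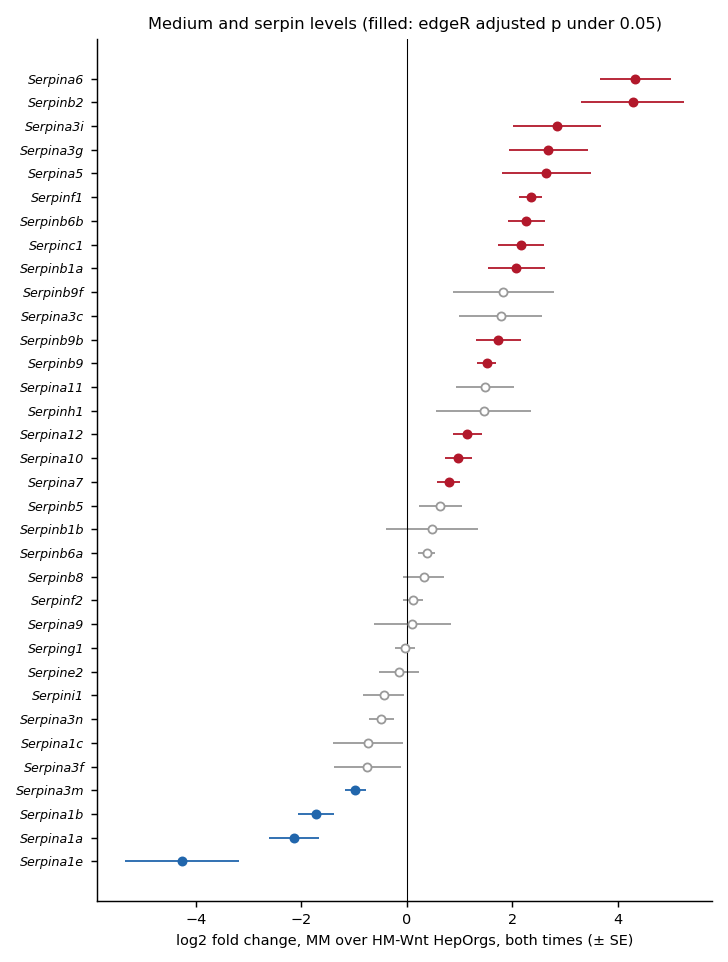
Log2 fold change with standard error of 34 serpins between MM and HM-Wnt HepOrgs over both times (edgeR, 6 libraries a medium), filled where the adjusted p is under 0.05. Serpina6 and Serpinb2 lie farthest to the right (4.33 and 4.28), Serpina1e and Serpina1a farthest to the left (-4.27 and -2.14).

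Several liver plasma serpins were higher in MM than in HM-Wnt. Serpina6 led (3.96 at 1 week, SE 0.94, adjusted p = 0.0451; 4.70 at 2 weeks, SE 0.97, adjusted p = 0.0118; 4.33 over both, SE 0.67, adjusted p = 0.00149), with each MM library above every HM-Wnt library. Serpinf1 was higher at each time (1.60, SE 0.31, adjusted p = 0.0249; 3.10, SE 0.33, adjusted p = 0.000713), also without overlap. Antithrombin (Serpinc1) was higher at 2 weeks (2.97, SE 0.64, adjusted p = 0.0148) and over both times (2.17, SE 0.44, adjusted p = 0.00616). At 1 week it passed only with the block (1.44, adjusted p = 0.00777, against 1.37, adjusted p = 0.213, without). Serpina7, Serpina10 and Serpina12 were higher at 2 weeks by 1.46 each (adjusted p = 0.0155, 0.0276 and 0.036). At 1 week the calls of Serpina6 and Serpinf1 were lost without HM-Wnt replicate 1, 2 or 3 or MM replicate 1 or 2 (3.62 to 4.63, adjusted p = 0.0588 to 0.143 for Serpina6 and 1.34 to 1.79, adjusted p = 0.0535 to 0.106 for Serpinf1). At 2 weeks that of Serpinc1 was lost without HM-Wnt replicate 1 or MM replicate 2 (log2 fold change 2.705 to 2.91, adjusted p = 0.0527 to 0.0628). That of Serpina7 was lost without HM-Wnt replicate 3 or MM replicate 1 or 2 (log2 fold change 1.24 to 1.40, adjusted p = 0.0558 to 0.0696), and that of Serpina10 without HM-Wnt replicate 1 or 3 or MM replicate 1 or 2 (log2 fold change 1.203 to 1.60, adjusted p = 0.0663 to 0.107). That of Serpina12 was lost without HM-Wnt replicate 1, 2 or 3 or MM replicate 1 or 2 (log2 fold change 1.26 to 1.63, adjusted p = 0.0554 to 0.122). Of the 8 hepatocyte markers, Hpx was higher in MM over both times (1.85, adjusted p = 0.00942), Alb was lower (-0.89, adjusted p = 0.0266) and 6 did not pass. Their part in these values was not tested.

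The Serpina1 copies went the other way. Over both times Serpina1e (log2 fold change -4.27, SE 1.08, adjusted p = 0.0174), Serpina1a (log2 fold change -2.14, SE 0.47, adjusted p = 0.00882) and Serpina1b (log2 fold change -1.72, SE 0.34, adjusted p = 0.00567) fell. Replicate 3 had the lowest value of all 3 copies in both MM groups. The call of Serpina1e was lost without MM replicate 1 of 1 week (-4.17, adjusted p = 0.0528). Serpina1c did not pass without the block (-0.73, adjusted p = 0.46) and passed with it (-1.24, adjusted p = 0.0317). The summed cluster fell (-1.79, adjusted p = 0.0171). With the block at 1 week, Serpina1a (-2.33, adjusted p = 0.0095), Serpina1b (-2.09, adjusted p = 0.00342) and Serpina3m (-1.05, adjusted p = 0.0187) were lower too. Serpina3m fell over both times (log2 fold change -0.98, SE 0.20, adjusted p = 0.00597), while Serpina3n did so only with the block (-0.43, adjusted p = 0.0348).

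The times were also compared within each medium. Between 1 and 2 weeks edgeR called 0 serpins within MM, 0 within HM-Wnt and 0 in the medium-by-time term. It called 0.0154% of all genes between the times in MM and none in the other 2. DESeq2 called 1, 0 and 1 serpins, against 2.37%, 0.169% and 0.354% of all genes. With edgeR 2, 4 and 3 members lay under an unadjusted p of 0.05 in these comparisons, against 10.3%, 8.73% and 7.32% of all genes.

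Among clade B and the rare members, Serpinb9 was higher in MM at each time (1.37, SE 0.26, adjusted p = 0.023; 1.66, SE 0.26, adjusted p = 0.00318) without overlap. Its call at 1 week was lost without HM-Wnt replicate 3 or MM replicate 1 or 2 (log2 fold change 1.18 to 1.27, adjusted p = 0.0652 to 0.0905). Serpinb6b and Serpinb2 were higher at 2 weeks (2.66, SE 0.50, adjusted p = 0.00816, and 5.07, SE 1.43, adjusted p = 0.0424), Serpinb2 on 18 counts over HM-Wnt and not without HM-Wnt replicate 1, 2 or 3 or MM replicate 1 or 3 (log2 fold change 2.52 to 6.46, adjusted p = 0.058 to 0.16). Over both times Serpina3i was higher (log2 fold change 2.85, SE 0.84, adjusted p = 0.0324). The call was lost without any single library but HM-Wnt replicate 2 of 1 week or replicate 3 of either MM group (2.55 to 3.04, adjusted p = 0.0513 to 0.0739). Serpina3g (log2 fold change 2.69, SE 0.75, adjusted p = 0.0268) was likewise lost without any of 8 of the 12 libraries (1.500 to 2.78, adjusted p = 0.0508 to 0.0999), and Serpina5 (log2 fold change 2.64, SE 0.84, adjusted p = 0.0449) without any of 9 (2.14 to 2.75, adjusted p = 0.0737 to 0.122). Serpinb6a passed only with the block (0.37, adjusted p = 0.00497). Serpinb1a, on few counts, was higher at 2 weeks (log2 fold change 2.74, SE 0.78, adjusted p = 0.044), and not without HM-Wnt replicate 1 or 3 or MM replicate 1, 2 or 3 (log2 fold change 2.37 to 2.96, adjusted p = 0.0567 to 0.147). Of the 12 plasminogen system genes, 11 were tested over both times and 1, F11, was lower (-0.96, adjusted p = 0.0417).

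The last question was what the amount of portal mesenchyme does in assembloids. Fibrotic-like and homeostatic assembloids were compared in 1 fit of 12 libraries with 14255 genes and 41 serpins tested. With all libraries edgeR called 0 genes, and so 0 serpins, at either time or over both (0% of all genes). At an unadjusted p of 0.05 there were 6, 5 and 11 serpins (14.1%, 6.62% and 18.8% of all genes). DESeq2 called 1, 4 and 4, against 6.08%, 1.92% and 12.4% of all genes. Without both libraries that stood apart, an alternative chosen after the data were seen, edgeR called 3 serpins at 1 week, 4 at 2.5 weeks and 15 over both times (9 higher and 6 lower). These stand against 1.87%, 3.19% and 28.4% of all genes. Leaving out homeostatic replicate 2 of 1 week alone also gave 15 over both times (29.7% of all genes), and 6 at 1 week (8.01%). At 2.5 weeks, a time that neither of these libraries belongs to, 12 of the 51 members with a count had all fibrotic-like libraries above all homeostatic ones and 4 all below, against 17.5% and 14.4% of all genes with a count.

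**Figure D5:**
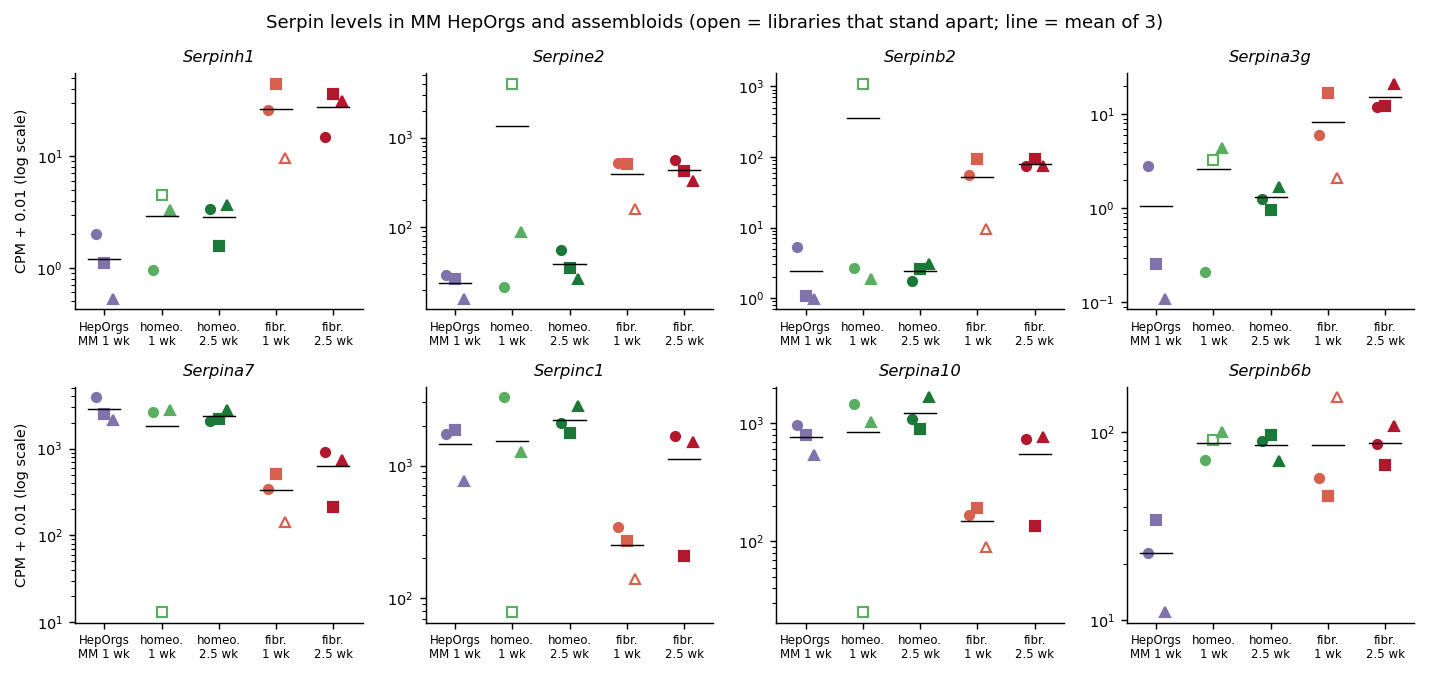
Level (CPM plus 0.01, log axis) of 8 serpins in MM HepOrgs at 1 week and in homeostatic and fibrotic-like assembloids at 1 and 2.5 weeks, with each library as a point, open for the 2 libraries that stand apart, and the mean of 3 as a line. Serpinh1, Serpine2, Serpinb2 and Serpina3g lie higher in all fibrotic-like libraries than in all homeostatic ones at 2.5 weeks, Serpina7, Serpinc1 and Serpina10 lower.

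With all libraries the HSP47 gene Serpinh1 had the lowest adjusted p of the serpins over both times. It stood at 0.935, 4.46 and 3.31 CPM at 1 week and 3.38, 1.57 and 3.66 CPM at 2.5 weeks in homeostatic assembloids and at 25.9, 44.4 and 9.7 CPM at 1 week and 14.8, 36.1 and 31.1 CPM at 2.5 weeks in fibrotic-like ones. Every fibrotic-like library exceeded every homeostatic library of both times. The log2 fold change over both times was 3.23 (SE 0.54, adjusted p = 0.0848) with all libraries and 3.61 (adjusted p = 0.00364) without both that stood apart. Summed portal mesenchyme markers were likewise higher at 2.5 weeks, at 148 to 222 CPM in homeostatic and 1013 to 4102 CPM in fibrotic-like assembloids. At 1 week they overlapped, at 114 to 888 CPM in homeostatic and 224 to 5054 CPM in fibrotic-like assembloids. The 888 CPM were in homeostatic replicate 2 and the 224 CPM in fibrotic-like replicate 3, the libraries that stood apart. All 9 of these markers were tested, with a median log2 fold change of 3.10 over both times. The collagen folding partners of Serpinh1 had a median of 1.29 over 12 tested, with Col1a1 at 3.22, Col3a1 at 3.80 and Fkbp10 at 3.82, none past the threshold (adjusted p = 0.0869, 0.0869 and 0.102). Since more mesenchyme was added by design, more cells and more RNA per cell cannot be told apart.

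Serpine2 and Serpinb2 followed the same pattern with 1 exception each in the same library. Serpine2 was at 55.1, 34.9 and 26.2 CPM in homeostatic and 566, 421 and 331 CPM in fibrotic-like assembloids at 2.5 weeks. At 1 week it was at 519, 504 and 158 CPM in fibrotic-like and 21.2, 3961 and 89.1 CPM in homeostatic assembloids, whose replicate 2 was the highest of all 27 libraries. Serpinb2 was at 1.74, 2.59 and 3.02 against 73.7, 94.4 and 73.7 CPM at 2.5 weeks and at 2.66, 1078 and 1.88 against 55.1, 92.3 and 9.55 CPM at 1 week, again with the maximum in homeostatic replicate 2. This library turned the direction at 1 week: the log2 fold changes were -1.68 and -2.68 with it (adjusted p = 0.626 and 0.533) and 2.82 and 4.51 without it (adjusted p = 0.0474 and 0.0408). Without both libraries that stood apart the values over both times were 3.34 for Serpine2 (adjusted p = 0.0037) and 5.01 for Serpinb2 (adjusted p = 0.000153). Serpinb5 was also at its highest there, 0.68, 376 and 12 CPM in homeostatic assembloids at 1 week.

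Serpina3g, at 1.25, 0.952 and 1.69 CPM in homeostatic and 12, 12.3 and 21 CPM in fibrotic-like assembloids at 2.5 weeks, did not overlap, nor did its neighbour Serpina3f (0.717, 0.186 and 1.27 against 6.39, 4.64 and 5.18 CPM). Without both libraries that stood apart they were higher over both times by 2.89 and 3.07 (adjusted p = 0.0197 and 0.0212), against 2.60 and 3.02 with all libraries (adjusted p = 0.116 and 0.14). Serpini1 (1.97, adjusted p = 0.0217), Serpinb8 (1.27, adjusted p = 0.0171) and Serpina1e (1.59, adjusted p = 0.042) were higher too.

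The 6 lower ones are mostly known as products of the hepatocyte. Serpina7 was at 2664, 13.1 and 2807 CPM at 1 week and 2069.6, 2208 and 2809 CPM at 2.5 weeks in homeostatic and 342, 516 and 142 CPM at 1 week and 923, 213 and 731 CPM at 2.5 weeks in fibrotic-like assembloids. Apart from homeostatic replicate 2 of 1 week every homeostatic library was higher than every fibrotic-like one. Antithrombin (Serpinc1) had 3267, 79.2 and 1259 CPM at 1 week and 2086, 1770.4 and 2805 CPM at 2.5 weeks in homeostatic and 347, 268 and 139.6 CPM at 1 week and 1667, 207 and 1494 CPM at 2.5 weeks in fibrotic-like assembloids. Serpina10 had 1460.1, 25.3 and 1024 and 1086, 900.4 and 1662 against 167, 193 and 89.7 CPM at 1 week and 739.9, 135 and 763 CPM at 2.5 weeks. Fibrotic-like replicate 2 of 2.5 weeks was the lowest of its group in all 3. Without both libraries that stood apart the log2 fold changes over both times were -2.30, -1.93 and -1.97 (adjusted p = 0.00852, 0.0317 and 0.019). Those of Serpina11, Serpinf2 and Serpinf1 were -1.86, -1.12 and -0.92 (adjusted p = 0.0497, 0.044 and 0.039). None of the 6 passed with all libraries, where edgeR called 0 genes. The log2 fold change of Serpinf2 was then -1.04 (adjusted p = 0.627), and on the deposited TPM it turned to 0.53 and 0.60 (pseudocounts 1 and 0.1). Hepatocyte markers summed to 49591 to 60110 CPM in homeostatic and 10323 to 50608 CPM in fibrotic-like assembloids at 2.5 weeks, ranges that overlapped. The lowest value was in the same replicate 2 of the latter. With all libraries, where edgeR called 0 genes, the 8 hepatocyte markers could not pass. Their median log2 fold change there was -0.43 at 2.5 weeks, -1.18 at 1 week and -0.59 over both times. At 1 week, without both libraries that stood apart, the markers summed to 80619 and 37965 CPM in homeostatic assembloids. Fibrotic-like ones held 16788 and 20143 CPM. The part of the hepatocyte markers in these serpin values was not tested. Serpina1b (1805, 1993 and 1586 against 2932, 784 and 2800.4 CPM at 2.5 weeks) and Serping1 (1982, 2263 and 3102 against 1699.9, 1067 and 2889 CPM) overlapped between the groups.

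Clade B took 0.0189% to 0.0323% of counts in homeostatic and 0.0384% to 0.0800% in fibrotic-like assembloids at 2.5 weeks, 2 ranges that did not overlap. Serpinb8, an inhibitor of furin, stood at 1.62, 1.1 and 1.51 against 4.16, 8.26 and 6.62 CPM, Serpinb5 (maspin) at 3.57, 1.99 and 0.967 against 8.13, 51.7 and 10.49 CPM and Serpinb1a at 1.26, 2.48 and 2.72 against 4.53, 57.4 and 7.44 CPM at that time. All 3 were higher in each fibrotic-like library than in any homeostatic one, with replicate 2 of the fibrotic-like group the highest, and did not pass at 2.5 weeks by edgeR with all libraries. Cholangiocyte markers other than Spp1 moved with them, from 110 to 221 CPM in homeostatic to 615, 3317 and 738 CPM in fibrotic-like assembloids, with Krt19 at 197, 1632 and 191 CPM in the latter. Their part in these values was not tested. Serpinb6a, the most abundant of the clade, overlapped at both times, at 169, 247 and 142 against 178, 201 and 128 CPM at 1 week and 164, 200.3 and 119.6 against 143, 171 and 122 CPM at 2.5 weeks, as did Serpinb9 (43.7, 39.1 and 30.7 against 33.5, 30.2 and 38 CPM at 2.5 weeks).

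Against the MM HepOrgs of 1 week, edgeR called 0 of 37 serpins tested in homeostatic assembloids and 0 in fibrotic-like ones (5 and 8 under an unadjusted p of 0.05, against 7.12% and 11% of all genes; DESeq2 called 2 and 4, against 1.91% and 5.33%). Without both libraries that stood apart it called 0 and 11, the latter against 22.2% of all genes. Serpinb6b was higher in both kinds of assembloid library by library, at 71.2, 90.9 and 100.1 and 56.7, 45.9 and 153 CPM against 22.9, 33.9 and 11.1 CPM, although its log2 fold changes of 1.92 and 1.90 did not pass (adjusted p = 0.684 and 0.372). Serpinb9b, at 8.93, 10.9 and 71.3 CPM in fibrotic-like assembloids against 0.49, 1.14 and 0.58 CPM, did not overlap either (5.29, adjusted p = 0.411). Serpinb11 was high in fibrotic-like replicate 3 of 1 week, 1 of the libraries that stood apart: that replicate held 93.5 CPM, and no other of the 27 libraries more than 2.38 CPM. Between the collection times edgeR called 0 serpins in homeostatic and 0 in fibrotic-like assembloids. At an unadjusted p of 0.05 there were 4 and 1, against 6.57% and 0.856% of all genes. DESeq2 called 1 and 0, against 0.105% and 0%. In the term for a difference between the times edgeR called 0, with 4 under an unadjusted p of 0.05 (1.95% of all genes). DESeq2 called 0 there (0%).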

How the data were processed

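Libraries were prepared by the SMART-seq2 method with Nextera tagmentation, which does not mark strand, and per the labels and the study's methods were aligned to GRCm39 with STAR and counted with featureCounts. The deposited gene counts were used for every test. The authors' deposited TPM, a measure per gene length whose lengths equal the whole gene span for 80.4% of genes, served only as an alternative on the log2 scale (log2(TPM + 1) and log2(TPM + 0.1), limma 3.58.1). The table named 37 libraries, of which 10 were not used because no label of this series names them.

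Levels are CPM after TMM scaling of all 27 libraries, and levels between genes were compared per kilobase of merged exon (GENCODE vM39). Differences were tested with edgeR 4.0.16 (R 4.3.3; filterByExpr with at least 10 counts and 15 in total, TMM, quasi-likelihood F test, two-sided, Benjamini-Hochberg over all genes tested, threshold 0.05) in 4 fits: fresh hepatocytes with HepOrgs (15 libraries, 13405 genes), HepOrgs alone (12 libraries, 12989 genes), assembloids alone (12 libraries, 14255 genes) and assembloids with MM HepOrgs at 1 week (9 libraries, 13735 genes). Fold changes of members near 0 depend on the prior count of 2. Alternatives were DESeq2 1.42.0, no filter, a fit of 2 groups or of all 27 libraries, summed paralogue clusters, a replicate block and leaving out each library; leaving out both libraries that stood apart and limma-voom with sample weights were chosen after the data were seen. Replicate numbers were checked for pairing. All 18 same-numbered pairs of HepOrg libraries had deviations correlated above 0.1 (0.127 to 0.503), so the block is given where it changed a call. In the other fits 19 of 30, 6 of 18 and 2 of 9 pairs were above 0.1. The 30 include the pairs among HepOrgs. The block was run in these fits too, but only its effect on the counts of calls is given. The tests were also run on simulated counts with the same spread for every gene, no pairing and no library that stood apart. That run cannot show how the tests behave on libraries like these assembloids.

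The members and gene lists were chosen with earlier results of these data known. By rule, tested members of the role lists were to be given in every library, with the 3 highest and 3 lowest called members of each comparison. Departing from it, the clade B members with few counts are given by their range. In assembloids, library values are given for some members only. Those of Serpina6, Serpina12, Serpina3m and Serpina3n, among others, are left out there. The values of 1 member are not reported here, though counts over the family include it. Intervals cover counting error only. Sequences are from GRCm39 and, for promoters, RefSeq on GRCm38.p6.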

Additional observations from a re-analysis of the deposited data

How the results depend on the processing

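Of 292 alternative counts of serpins called, 239 stayed within 1.5 times the value given and 53 moved. Over single members in single comparisons, 2309 alternative values kept their direction and their side of the threshold, 270 no longer passed, 147 newly passed and 12 changed direction. With the replicate block the counts of MM over HM-Wnt HepOrgs were 13 at 1 week and 19 at 2 weeks, and it moved no other count of calls by over 1.5 times. DESeq2 gave 9 for MM over HM-Wnt at 1 week (10.9% of all genes), 1 for the times in MM (2.37%) and 1 for medium by time (0.354%). It gave 1, 4 and 4 for fibrotic-like over homeostatic assembloids at 1 week, 2.5 weeks and both (6.08%, 1.92% and 12.4%). For the times in homeostatic assembloids it gave 1 (0.105%). Homeostatic and fibrotic-like assembloids over MM HepOrgs had 2 and 4 (1.91% and 5.33%). With all 27 libraries in 1 fit HM-Wnt against fresh hepatocytes gave 11 and 11 at 1 and 2 weeks (19.7% and 22.2% of all genes). MM gave 10 and 9 there (13.7% and 12.9%). That fit gave 0, 1 and 2 for MM over HM-Wnt at 1 week, 2 weeks and both (0%, 0.0478% and 0.621%). Fibrotic-like over homeostatic assembloids gave 1 and 9 at 1 week and both (6.21% and 15.1%). Homeostatic and fibrotic-like assembloids over MM HepOrgs gave 2 and 4 (1.34% and 7.29%). On the deposited TPM, limma with a pseudocount of 0.1 gave 4 for fibrotic-like over homeostatic assembloids over both times, and with a pseudocount of 1 it gave 6 there, 1 at 1 week, 5 for MM over HM-Wnt at 1 week and 1 for fibrotic-like assembloids over MM HepOrgs. Without the filter the times in MM gave 1. No share of all genes is given for the counts on TPM or without the filter. Fitting 2 groups alone gave 0 for MM over HM-Wnt at 1 week (0.238% of all genes) and 1 for the times in MM (0.12%). It gave 6 for fibrotic-like over homeostatic at 2.5 weeks (5.53%) and 13 for fibrotic-like assembloids over MM HepOrgs (25.5%). Summed clusters gave 15 and 16 in MM against fresh hepatocytes (42.8% and 39.7% of all rows tested). The voom fit gave 10, 8 and 18 for fibrotic-like over homeostatic assembloids (15.6%, 7.3% and 32.7% of all genes) and 21 over MM HepOrgs (53%). Leaving out both libraries that stood apart gave 3, 4, 15 and 11 (1.87%, 3.19%, 28.4% and 22.2%). Leaving out 1 library at a time gave 17 to 18 and 16 to 20 in HM-Wnt and 18 to 22 and 21 to 23 in MM against fresh hepatocytes, 0 to 4, 6 to 9 and 13 to 20 for MM over HM-Wnt, and 0 to 6, 0 to 0 and 0 to 15 for fibrotic-like over homeostatic assembloids at 1 week, 2.5 weeks and both, where the 6 and the 15 came from homeostatic replicate 2 of 1 week and every other library left out gave 0. The 6 and the 15 stood against 8.01% and 29.7% of all genes. No share is given for the other counts with 1 library left out. The cause of these moves was not tested. Between fibrotic-like and homeostatic assembloids at 1 week the log2 fold change of Serpinb2 turned from -2.68 to 1.00 and 1.71 on TPM (pseudocounts 1 and 0.1), 4.51 without homeostatic replicate 2, 5.003 without both libraries that stood apart and 4.70 with voom, and that of Serpine2 from -1.68 to 1.36, 1.58, 2.82, 3.20 and 3.22. Leaving out single libraries of either group gave -3.38 to 4.51 for Serpinb2 and -2.22 to 2.82 for Serpine2. Over both times that of Serpinf2 turned from -1.04 to 0.53 and 0.60 on TPM (pseudocounts 1 and 0.1). Depth limits the members at or below 1 CPM, whose fold changes rest on few counts.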
